A study of Homo sapiens with 18 samples.

Results

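The genes of the proteasome were followed after knockdown of the acetyltransferase NAT10 in PANC-1, an established human line of pancreatic ductal carcinoma. Members were all protein-coding genes whose symbol is PSMA, PSMB, PSMC, PSMD, PSME, PSMF or PSMG followed by a number, which gave 48 of the 58302 genes in the expression table. Within them the 5 genes of the immunoproteasome, PSMB8, PSMB9, PSMB10, PSME1 and PSME2, were set against the other 43. Both groups of cells carried a lentiviral vector, a control vector in shCtrl cells and a vector with a short hairpin RNA against NAT10 in shNAT10 (NAT10-KD) cells, and no drug or cytokine is named for either. RNA-seq was made from 3 libraries per group. acRIP-seq, an immunoprecipitation of RNA fragments with an antibody against N4-acetylcytidine (ac4C), was made from 3 IP and 3 input libraries per group, and its peaks come as 1 list per group. Nothing in the labels says that the 3 libraries of a group came from separate cultures, and the hairpin used is not named, so the p-values measure the spread between these libraries in 1 knockdown line.

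The proteasome degrades ubiquitin-tagged proteins. Its 20S core is a barrel of outer rings of alpha subunits and inner rings of beta subunits, of which PSMB5, PSMB6 and PSMB7 carry the active sites. The 19S particle, built from the PSMC ATPases and most PSMD subunits, caps the core, strips ubiquitin and unfolds the substrate. In cells exposed to interferon the active subunits are replaced in new cores by PSMB8, PSMB9 and PSMB10, and the PA28 activator of PSME1 and PSME2 can cap them, which changes the peptides made for MHC class I molecules. Carcinoma lines can make these immunoproteasome subunits without added interferon.

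NAT10 itself was measured at 31.6, 27.7 and 28.6 FPKM (reads scaled to gene length and library size) in shCtrl and at 7.92, 8.43 and 7.90 in shNAT10 (log2 fold change -1.84, SE 0.08, limma adjusted p = 3.85e-05). Depth lay between 15831720 and 23521762 reads per library. Of 7 markers of PANC-1 cells all 7 were above the expression filter, and KRT7, KRT8, KRT18 and KRT19, keratins of ductal epithelium, were lower in shNAT10 cells while EPCAM rose from 4.87 to 22.6 FPKM. Of 12 leukocyte markers, 4 were listed at 0 in all 6 libraries and CD14 alone was above the filter, and the summed FPKM of the list was 2.58 to 3.26 in shCtrl and 1.62 to 1.81 in shNAT10. Fibroblast markers summed to 28.7 to 34.0 and 17.3 to 20.8 FPKM, nearly all of it COL1A1, and 0 of 3 endothelial and 0 of 3 acinar markers passed the filter. The part of these marker levels in the results was not tested. The library of shCtrl replicate 2 had the highest value of its group for 38 of the 44 tested proteasome genes, by a median of 0.26 on the log2 scale, and for 47.1% of all tested genes. The part of this library's difference in the results was not tested either.

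Proteasome genes did not shift as a block. Of the 48 members 44 passed the filter, which asked for 3 or more libraries at 1 FPKM or above. Of these, 12 were lower and 6 were higher in shNAT10 at the adjusted threshold of 0.05 (limma on log2(FPKM + 0.1), Benjamini-Hochberg over 12982 genes), and 26 did not pass. The same test called 21.2% of all tested genes lower and 20.8% higher (2751 and 2699 genes). With values rescaled to TPM these were 2075 and 3355 genes, and 10 members were lower and 12 higher, with PSMB8 and PSME3 no longer called. In bulk RNA, less RNA per cell and fewer cells with the transcript cannot be told apart. The 12 lower genes were all 5 immunoproteasome genes and 7 of the 39 other tested members, and the 6 higher genes were all among the other members. The median log2 fold change was -0.86 for the immunoproteasome genes, -0.06 for the other members and -0.01 for all tested genes. Without shCtrl replicate 2 the count was 14 lower and 11 higher, and the median of the other members turned to 0.06. In that fit every one of the 18 calls kept its direction and passed the test, and PSMC2, PSMD1, PSMD2, PSMD10 and PSMF1 joined the higher genes and PSMD3 and PSMD12 the lower ones. PSMB10 passed the filter only through its shCtrl libraries and PSMB9 through these and 1 shNAT10 library, so the filter favoured a fall for both.

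**Figure D1:**
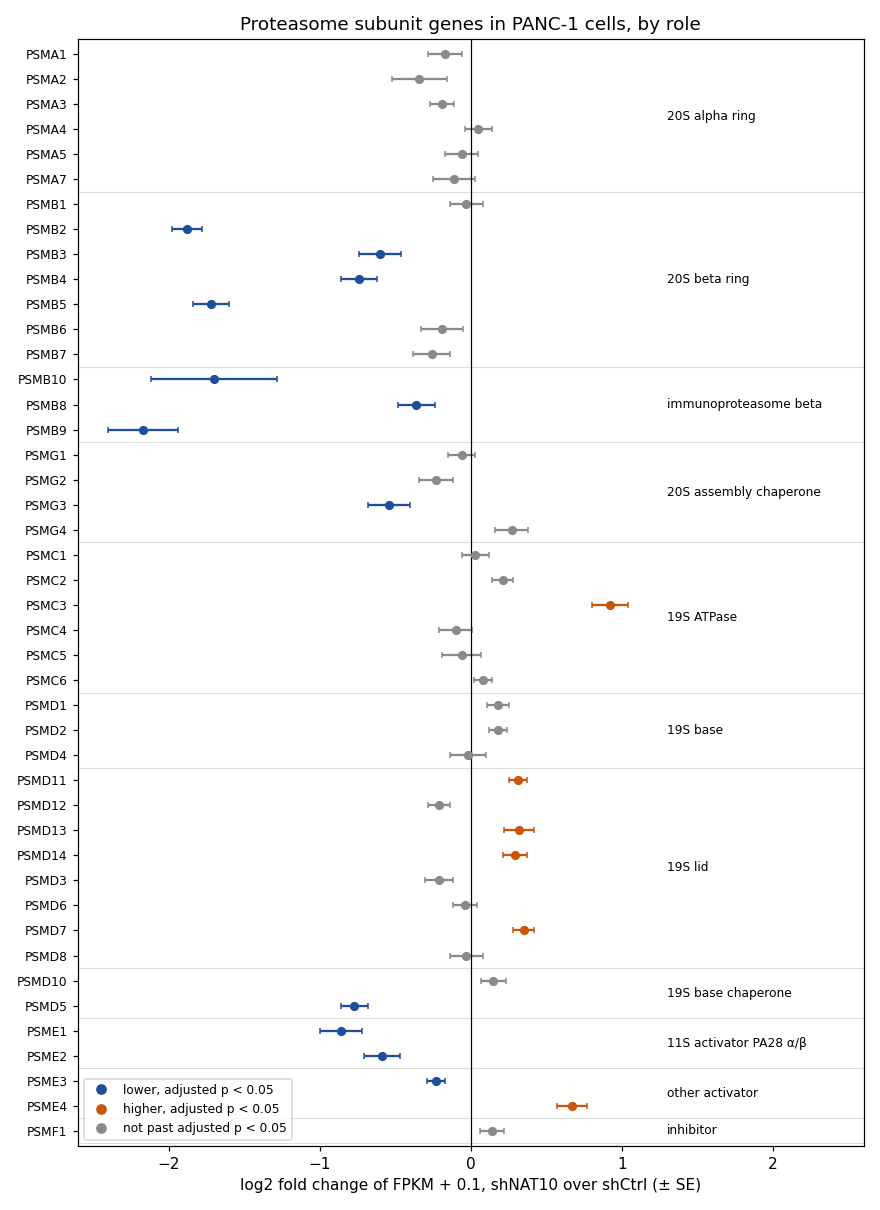
Log2 fold change of FPKM + 0.1, shNAT10 over shCtrl, with its standard error for the 44 tested members, arranged by role. The lower genes (12) lie in the beta ring, the immunoproteasome, the chaperones and the activators, and 5 of the 6 higher genes lie in the 19S particle.

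PSMB9 had the largest log2 fold change of all members with the pseudocount of 0.1. With a pseudocount of 1 it was at -1.55, behind PSMB2 (-1.80) and PSMB5 (-1.68). It encodes the inducible subunit that takes the place of PSMB6, the caspase-like site. Its FPKM was 4.50, 5.89 and 4.51 in shCtrl and 0.826, 0.865 and 1.46 in shNAT10, from 209, 319 and 284 against 35, 45 and 69 reads. The groups did not overlap, and shNAT10 replicate 3 stood above the other knockdown libraries. The log2 fold change was -2.17 (SE 0.23, limma adjusted p = 0.000571).

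PSMB10, the inducible counterpart of the trypsin-like subunit PSMB7, had the lowest FPKM of the 5. It was measured at 1.04, 1.66 and 1.19 FPKM in shCtrl and at 0.156, 0.591 and 0.325 in shNAT10. These rest on 22, 41 and 34 reads against 3, 14 and 7. The groups did not overlap, but the knockdown libraries differed widely among themselves. Its log2 fold change was -1.70 (SE 0.42, limma adjusted p = 0.017), or -0.76 with a pseudocount of 1, and without shCtrl replicate 3 the adjusted p was 0.0532, within a range of 0.00943 to 0.0532 over the alternatives.

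PSMB8, the inducible counterpart of the chymotrypsin-like subunit PSMB5, was the most abundant inducible catalytic subunit on the FPKM scale and changed least. It was measured at 13.8, 18.2 and 14.2 FPKM in shCtrl and at 12.2, 11.2 and 12.4 in shNAT10. The groups did not overlap, by a narrow margin. The log2 fold change was -0.36 (SE 0.12, limma adjusted p = 0.0441). This call was the least firm of the 5, since 9 of 16 alternatives left it above the threshold, with adjusted p from 0.0209 to 0.142. Without shCtrl replicate 2 its log2 fold change was -0.23.

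The subunits of the PA28 activator, a ring that opens the core without ubiquitin or ATP, both fell. PSME1 was measured at 35.5, 47.0 and 38.8 FPKM in shCtrl and at 26.1, 20.6 and 20.3 in shNAT10, a log2 fold change of -0.86 (SE 0.14, limma adjusted p = 0.00306). PSME2 was measured at 23.5, 32.0 and 24.5 FPKM against 16.8, 17.5 and 18.3, a log2 fold change of -0.59 (SE 0.12, limma adjusted p = 0.00821). Both calls held under every alternative run.

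**Figure D2:**
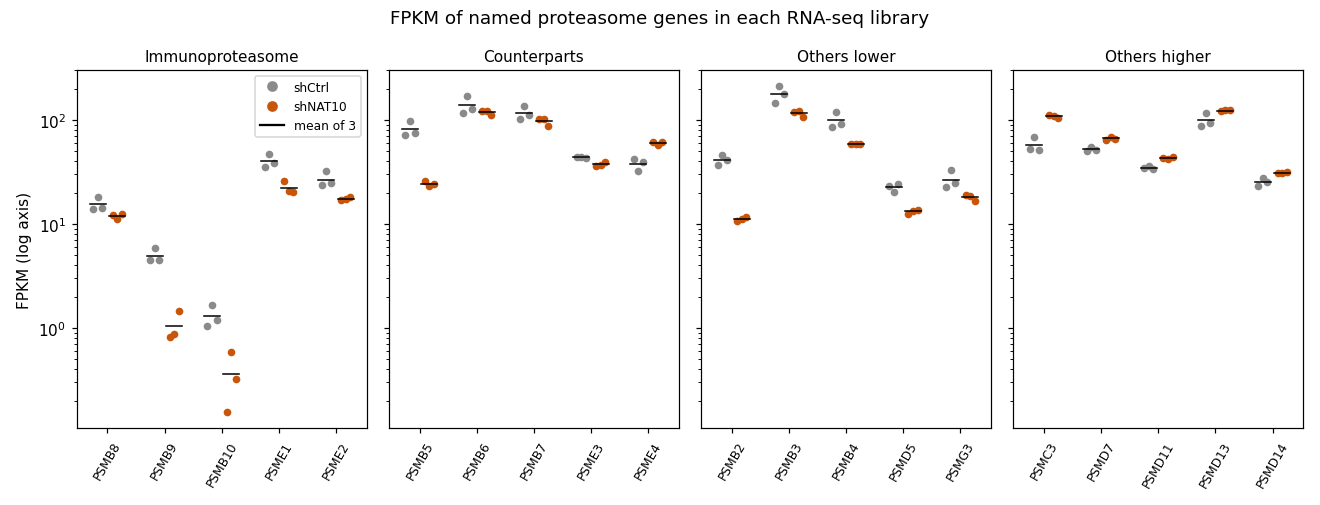
FPKM on a log axis in each of the 3 shCtrl and 3 shNAT10 libraries, with the mean as a bar, for the immunoproteasome genes, their counterparts, and the other members past the test. PSMB9 and PSMB10 are the lowest of the genes plotted, and PSMB5 and PSMB2 lie far below their shCtrl values in all 3 shNAT10 libraries.

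The genes of the immunoproteasome sit in small clusters. On GRCh38, PSMB8 (chr6:32840717-32844703, minus strand) and PSMB9 (chr6:32844136-32859585, plus strand) lie with TAP1 and TAP2, the subunits of the peptide transporter, within 37.8 kb of the MHC region, and all 4 were lower in shNAT10 cells. PSME1 (chr14:24136158-24138967, plus strand) and PSME2 (chr14:24143362-24147570, minus strand) lie within 11.4 kb of each other. PSMB10 stands apart from them at chr16:67934502-67937087. In PSMB8, 20.6% of exon bases lie opposite an exon of another gene. On the same strand, 17.6% of the coding transcript of PSMB9 is shared with PSMB8-AS1 and 45.3% of that of PSMB10 with AC040162.1. Some reads of these genes could have been left uncounted or given to a neighbour.

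Promoter sequence was compared next, because these genes moved in the same direction. RefSeq windows of 250 bases before to 50 after the start (GRCh38.p14) were found for 42 of the 48 members. The letters GAAANNGAAA, the core of the interferon-stimulated response element bound by IRF factors, were searched on both strands. They were present for 4 of the 5 immunoproteasome genes and for 3 of the other members with a window, PSMA4, PSMB4 and PSMG4, against 3.57% of all 35116 windows and 4.38% of genes. The matches of the 4 immunoproteasome genes, and that of PSMB4, which also fell, are shown with the motif in capitals and 10 bases on each side, each on the strand of its gene, 5′ to 3′. In PSMB8 and PSME1 the capitals are the reverse complement of the motif.
PSMB8, chr6:32844032-32844061, minus strand: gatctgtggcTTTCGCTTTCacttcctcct
PSMB10, chr16:67936852-67936881, minus strand: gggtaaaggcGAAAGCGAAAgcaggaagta
PSME1, chr14:24136189-24136218, plus strand: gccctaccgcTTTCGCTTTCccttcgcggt
PSME2, chr14:24146619-24146648, minus strand: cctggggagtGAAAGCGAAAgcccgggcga
PSMB4, chr1:151399495-151399524, plus strand: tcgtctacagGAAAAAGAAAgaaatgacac

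The 4 immunoproteasome matches share the letters GAAAGCGAAA or their reverse complement, and PSMB4 differs in the letters between the repeats. The match of PSMG4, not shown, also reads GAAAGCGAAA. PSMG4 did not pass the test (log2 fold change 0.27, limma adjusted p = 0.0802). PSMA4, whose match is not shown either, did not pass it (log2 fold change 0.05, limma adjusted p = 0.697). The window of PSMB9 does not hold GAAANNGAAA. TGACNNNGC, the core of the antioxidant response element that NFE2L1 and NFE2L2 bind, was in the windows of 15 of the 42 members (35.7%), PSMB9, PSME1 and PSME2 among them, against 16.1% of all genes. CCAAT, the box bound by NFYA, NFYB and NFYC, was in those of 20 members (47.6%) against 39.7% of genes, and the NF-kB site searched was in those of 0 members against 0.678%. These are matches of letters, and binding was not measured.

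The constitutive catalytic subunits did not move together. PSMB5, the chymotrypsin-like subunit and the main target of proteasome inhibitors such as bortezomib, was measured at 71.8, 96.5 and 74.9 FPKM in shCtrl and at 25.9, 23.2 and 24.0 in shNAT10. Every shNAT10 value was below every shCtrl value by a wide margin. The log2 fold change was -1.72 (SE 0.12, limma adjusted p = 0.000136). PSMB6 was measured at 116, 170.5 and 127 FPKM against 123, 122 and 112, and PSMB7 at 102.8, 136.5 and 112.1 against 101.4, 101.7 and 87.9. The groups overlapped for PSMB6 and barely separated for PSMB7. Their log2 fold changes were -0.19 (SE 0.14, limma adjusted p = 0.313) and -0.26 (SE 0.12, limma adjusted p = 0.111), and -0.03 and -0.15 without shCtrl replicate 2.

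The ratio of inducible to constitutive subunit RNA was higher for one site and lower for the others in shNAT10 cells. The log2 ratio of PSMB8 to PSMB5 was -2.37, -2.40 and -2.39 in shCtrl and -1.08, -1.04 and -0.95 in shNAT10, a difference of 1.36 with a pooled SD of 0.05. The log2 ratio of PSMB9 to PSMB6 was -4.66, -4.83 and -4.78 against -7.05, -6.99 and -6.17, a difference of -1.98 with a pooled SD of 0.36. The log2 ratio of PSMB10 to PSMB7 was -6.49, -6.28 and -6.45 against -8.63, -7.20 and -7.69, a difference of -1.44 with a pooled SD of 0.52. The groups did not overlap for any of the 3 ratios. The two-sided exact permutation test gave p = 0.1 for each, also after adjustment over the 3 ratios, which is the smallest that 3 against 3 libraries allow. With a pseudocount of 1 FPKM the differences of PSMB9/PSMB6 and PSMB10/PSMB7 shrank to -1.36 and -0.50, as both numerators are near 1 FPKM or under it in shNAT10 cells.

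The size of a ratio depends on the gene length behind the FPKM. The difference between groups depended on the pseudocount for the scarce genes. In reads per library size, with neither length nor pseudocount, it was -2.09 for PSMB9/PSMB6, -1.77 for PSMB10/PSMB7 and 1.36 for PSMB8/PSMB5. Without a pseudocount, gene length cancels from this difference. The authors' length matched the longest annotated transcript, which for PSMB9 is 2676 bases against 792 in its coding transcript. Per length of the coding transcripts, the mean log2 ratio of PSMB9 to PSMB6 was -3.00 in shCtrl and -4.98 in shNAT10, and those of the other ratios stayed as they were.

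**Figure D3:**
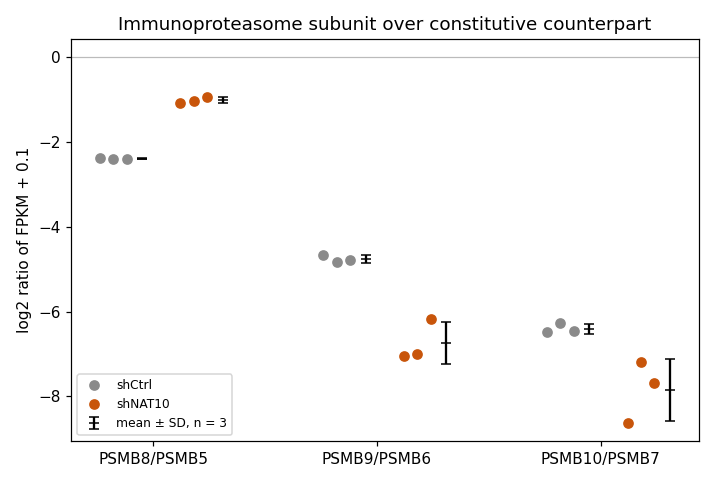
Log2 ratio of FPKM + 0.1 of each inducible catalytic subunit to its constitutive counterpart in each library, with mean ± SD (n = 3). The ratio PSMB8/PSMB5 is higher in the 3 shNAT10 libraries, and the other ratios are lower.

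The rest of the beta ring is structural. Of the 7 constitutive beta genes 4 were lower and 3 did not pass the test, against 21.2% lower among all tested genes. Their log2 fold changes were -1.88 to -0.03, and 6623 of the 12982 tested genes were below 0. PSMB2 was measured at 36.7, 46.2 and 41.2 FPKM in shCtrl and at 10.7, 11.1 and 11.6 in shNAT10. The knockdown libraries were tightly grouped and far from the controls. The log2 fold change was -1.88 (SE 0.10, limma adjusted p = 5.68e-05), the smallest p of all members. PSMB4, measured at 86.1, 119 and 92.3 FPKM against 58.6, 59.1 and 58.3, fell by 0.74 on the log2 scale (SE 0.12, limma adjusted p = 0.00306). PSMB3, measured at 144, 212 and 179 FPKM against 120.3, 121 and 107, fell by 0.60 (SE 0.14, limma adjusted p = 0.0127). Its log2 fold change was -0.47 without shCtrl replicate 2, and without shNAT10 replicate 3 its adjusted p was 0.0532, in a range of 0.00211 to 0.0532. PSMB1, with a log2 fold change of -0.03, was nearest to 0, and its sign held under 12 of 16 alternatives. Of the tested members, PSMB2, PSMB5, PSMB9 and PSMB10 were lower by more than 1 on the log2 scale, which 3.57% of all tested genes were. With a pseudocount of 1 the value of PSMB10 was -0.76.

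The alpha ring, which forms the gate of the core, gave no call. Its 6 tested genes had log2 fold changes from -0.34 to 0.05, with a median of -0.14. PSMA7, the most abundant of them, was measured at 132, 198 and 152 FPKM in shCtrl and at 155, 146 and 141 in shNAT10. PSMA8, a subunit of germ cells, and PSMB11, a subunit of the thymic cortex, were listed at 0 in all 6 libraries. Of 3 germ cell markers TNP1 was listed at 0 in all 6, DDX4 was above 0 in shNAT10 replicate 2 alone (0.0357 FPKM), and SYCP3 was at 0.0514 to 0.219 FPKM. Of 2 thymic markers FOXN1 was listed at 0 and PRSS16 was at 1.99 to 2.74 FPKM. PSMA6 lay below the filter, at 0.407 to 0.530 FPKM in shCtrl and 0.263 to 0.402 in shNAT10, although no core is built without it. In PSMA6, 81.0% of the coding transcript is shared with another annotated gene of the same strand, and the shares were 52.5% for PSMA1, 43.8% for PSMD9 and 45.3% for PSMB10. Reads in shared exons could have been left uncounted, so the levels of these 4 genes are uncertain.

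Of the 17 genes of the 19S particle 5 were higher and 0 lower by limma, against 20.8% and 21.2% of all tested genes, and the median log2 fold change was 0.08, with 7 genes below 0. PSMD3 and PSMD12 were lower at an unadjusted limma p of 0.0416 and 0.0236, and voom on recovered reads called neither. Both were called lower without shCtrl replicate 2 and with splines on length and GC content, PSMD3 also with quantile normalization, and PSMD12 also with a minimum FPKM of 5 and without shCtrl replicate 1. The nearest to the threshold were PSMD2, PSMD12 and PSMC2, with limma adjusted p of 0.053, 0.0547 and 0.0551. PSMC3, an ATPase of the base, was measured at 52.7, 69.0 and 51.6 FPKM in shCtrl and at 111, 109 and 104.5 in shNAT10. Every knockdown library was above every control library. The log2 fold change was 0.92 (SE 0.12, limma adjusted p = 0.00116), the largest rise among the members.

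The other 4 higher genes of the particle belong to its lid, which removes ubiquitin. PSMD7, the partner of the deubiquitinase PSMD14, was measured at 50.2, 54.8 and 51.4 FPKM against 64.4, 69.0 and 66.1 (log2 fold change 0.35, SE 0.07, limma adjusted p = 0.00554). PSMD11, a scaffold subunit, was measured at 34.1, 35.9 and 34.0 FPKM against 43.5, 42.1 and 43.6 (log2 fold change 0.31, SE 0.06, limma adjusted p = 0.00632). PSMD14 was measured at 22.9, 27.5 and 25.5 FPKM against 30.5, 30.8 and 31.4 (log2 fold change 0.29, SE 0.08, limma adjusted p = 0.0259). PSMD13 was measured at 88.3, 116 and 93.5 FPKM against 120.5, 125 and 124 (log2 fold change 0.32, SE 0.10, limma adjusted p = 0.0437). All of these rises were small. Leaving out 1 library lost the call of PSMD13 in 5 of 6 cases (every library but shCtrl replicate 2) and that of PSMD14 in 4 of 6 (shCtrl replicate 3 and each shNAT10 library), with adjusted p over all alternatives from 0.000246 to 0.135 and from 0.00217 to 0.241. The lid genes PSMD3, PSMD6, PSMD8 and PSMD12 had log2 fold changes of -0.21, -0.04, -0.03 and -0.21.

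Assembly factors and the remaining activators were mixed. PSMD5, a chaperone of the 19S base, was measured at 23.4, 20.1 and 24.4 FPKM in shCtrl and at 12.5, 13.4 and 13.6 in shNAT10, with a log2 fold change of -0.77 (SE 0.09, limma adjusted p = 0.000861). For PSMD5 shCtrl replicate 2 was the lowest of its group, unlike for most members. PSMG3, a chaperone of the alpha ring, was measured at 22.4, 32.7 and 24.6 FPKM against 19.03, 18.6 and 16.6, with a log2 fold change of -0.54 (SE 0.14, limma adjusted p = 0.0217). Leaving out any 1 shNAT10 library lost this call, with adjusted p over the alternatives from 0.00234 to 0.0806. Without shCtrl replicate 2 its log2 fold change was -0.38. The other core chaperones PSMG1, PSMG2 and PSMG4 did not pass the test.

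PSME4, the activator PA200, which acts in histone degradation, rose. It was measured at 41.7, 32.5 and 39.5 FPKM in shCtrl and at 61.3, 57.4 and 61.9 in shNAT10, with a log2 fold change of 0.67 (SE 0.10, limma adjusted p = 0.00241). PSME3, the nuclear activator PA28 gamma, was measured at 44.0, 43.9 and 43.2 FPKM against 36.4, 36.5 and 39.1. Its log2 fold change of -0.23 (SE 0.06, limma adjusted p = 0.0234) was the smallest fall called, and 6 of 16 alternatives left it above the threshold, with adjusted p from 0.00579 to 0.215. PSMF1, an inhibitor of the core, had a log2 fold change of 0.14.

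Levels differed far more between members than between groups. The median FPKM of the 43 members with a mean of at least 1 over all libraries was 41.4 in shCtrl and 43.1 in shNAT10, against 9.90 in shCtrl for the 10959 protein-coding genes with such a mean. PSMC4 stood apart at 1141 ± 184.5 FPKM (SD, n = 3) in shCtrl and 1058 ± 27.5 in shNAT10. The next were PSMB3, PSMD2, PSMD8 and PSMA7 at means of 178, 162, 162 and 161 in shCtrl, which did not differ beyond their spread. Per length of the coding transcripts PSMB4 and PSMB1 came next after PSMC4, at means of 212 and 206 in shCtrl. The inducible catalytic subunits were in the lower part of the order, with means of 15.4 for PSMB8, 4.97 for PSMB9 and 1.297 for PSMB10, or 16.8 for PSMB9 per length of its coding transcript.

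Genes around the proteasome were read from 5 lists. Of 20 subunits, chaperones, receptors and ligases of the proteasome outside the symbol rule, 7 were higher and 1 lower, and the median log2 fold change was 0.10. UBE3A, a ubiquitin ligase that binds the 19S particle, rose from 6.59 to 16.0 FPKM (log2 fold change 1.27, SE 0.10, limma adjusted p = 0.000208). PITHD1 was the lower one (-0.73, SE 0.07, limma adjusted p = 0.000507). Of 9 genes of ubiquitin and unfolding 0 were higher and 3 lower, UBA6 and UBA1 among them, with log2 fold changes of -0.80 and -0.32.

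Of 9 genes of the transcription of proteasome genes, 1 was higher and 5 were lower. NFE2L1, the factor that raises the transcription of proteasome genes when proteasome activity is short, was measured at 56.1, 51.8 and 52.4 FPKM in shCtrl and at 114, 111 and 111 in shNAT10, a log2 fold change of 1.07 (SE 0.06, limma adjusted p = 6.83e-05). NGLY1, the enzyme that removes sugars from NFE2L1 on its way to the nucleus, was measured at 10.7, 11.7 and 11.1 FPKM against 4.43, 5.14 and 5.27, a log2 fold change of -1.16 (SE 0.09, limma adjusted p = 0.00021). Groups of both genes were far apart, in opposite directions.

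Of 12 genes that handle class I peptides after the proteasome, 11 were tested, 2 were higher and 4 lower. TAP2 was measured at 5.89, 5.31 and 6.09 FPKM against 1.44, 1.78 and 1.73, a log2 fold change of -1.75 (SE 0.12, limma adjusted p = 0.000123). TAP1 was measured at 20.5, 25.1 and 23.3 FPKM against 13.1, 12.5 and 11.8, a log2 fold change of -0.87 (SE 0.09, limma adjusted p = 0.000612). B2M, the light chain of class I molecules, and ERAP2, a peptide trimming enzyme, fell, with log2 fold changes of -0.60 and -0.50, and CALR and TAPBP, which act in peptide loading, rose (0.30 and 0.23).

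Of 15 regulators of immunoproteasome transcription 14 were tested, with 1 higher and 7 lower. IRF1, a factor that drives these genes, was measured at 5.37, 6.32 and 5.13 FPKM in shCtrl and at 2.12, 1.93 and 2.16 in shNAT10, a log2 fold change of -1.39 (SE 0.11, limma adjusted p = 0.00023). IFNAR2 and IFNAR1, the chains of the type I interferon receptor, fell, with log2 fold changes of -1.01 and -0.72. IFNGR1 of the interferon gamma receptor fell too (-0.63), while IFNGR2 rose (0.30). NLRC5, the transactivator of class I genes, was below the filter at 0.312 to 0.413 FPKM in shCtrl and 0.158 to 0.194 in shNAT10. The share of each list that passed the test has to be read against the 21.2% lower and 20.8% higher among all tested genes.

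acRIP-seq asked which of these transcripts carried ac4C-enriched fragments. The lists hold no replicates, so differences between them have no replicate check. Of the 43 members with a mean FPKM of at least 1, 32 had a peak in shCtrl, 32 in shNAT10 and 26 in both lists. Of all protein-coding genes with such a mean, 55.6% had a peak in shCtrl, 53.8% in shNAT10 and 38.6% in both, and the part of the members' higher FPKM in these shares was not tested. In all, 54 shCtrl and 64 shNAT10 peaks lay on members, of which 28 and 34 had their midpoint in the coding sequence of the longest coding transcript. For 16 shCtrl and 20 shNAT10 peaks the midpoint lay outside the exons of that transcript. Of the 54 shCtrl peaks 18 (33.3%) shared at least 1 base with a shNAT10 peak of the same gene and strand, against 25.5% of the 16892 peaks of the whole shCtrl list. Of the 64 shNAT10 peaks 18 (28.1%) were shared in this way, against 27.2% of the 15813 peaks of the whole shNAT10 list. The fold enrichment of all member peaks, IP over input, had a median of 13.3 in shCtrl and 12.3 in shNAT10, against 49.3 and 45.2 over the whole lists.

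The number of peaks on members did not follow the RNA calls in one direction. Of the 12 lower genes 3 had fewer peaks in shNAT10, 5 had more and 4 had the same number. Of the 6 higher genes 2 had fewer, 3 had more and 1 had the same number. Of the 26 members that did not pass the test 7 had fewer, 10 had more and 9 had the same number. PSMB4 had 4 peaks in shCtrl, at fold enrichments of 3.40, 30.2, 4.01 and 12, and 0 in shNAT10. PSMB10 had 2 in shCtrl, at 28.1 and 566, and 0 in shNAT10, where its transcript rested on 3 to 14 reads per RNA-seq library. PSMC6, an ATPase whose FPKM did not differ by the test, had 1 in shCtrl at 44.8 and 6 in shNAT10, at 8.35 to 1730. The PSMB4 peak at 4.01 and the PSMB10 peak at 566 had midpoints outside the longest coding transcript. So did the PSMC6 peaks at 8.35, 20.7 and 1730. PSMC3, which rose, had 0 in shCtrl and 2 in shNAT10, at 7.87 and 16.1, while PSMD14, which rose too, had 1 in shCtrl at 12.9 and 0 in shNAT10.

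PSMB2, PSMB5, PSMB8 and PSMB9, whose RNA fell, had peaks in NAT10-KD cells too. PSMB5 had 2 peaks in shCtrl, at 14.7 and 4.86, and both overlapped shNAT10 peaks at 16.2 and 27.7, beside a further shNAT10 peak at 118. PSMB2 had a shared peak at 1.73 in shCtrl and 5.02 in shNAT10, and PSMB9 a shared one at 9.42 and 487. PSMB8 had peaks of 6.35 and 299 in shCtrl and of 1530, 540 and 3.48 in shNAT10. The lists do not give the reads behind a fold enrichment, and they hold peaks with a false discovery rate above 0.05, which were 1.72% of the shCtrl and 1.79% of the shNAT10 list. Among member peaks these were 0 in shCtrl and 2 in shNAT10, the PSMB8 peak at 3.48 and the PSMD9 peak. Both had their midpoint outside the longest coding transcript.

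The paper places most ac4C sites within CXXCXX motifs, a pattern that was not searched for. Runs of 4 CNN triplets, which are longer, were searched on the transcript strand in peaks on the longest coding transcript. They were in 30 of the 82 such peaks of members (36.6%) and in 51.9% of the 25689 such peaks of all genes. The run nearest the centre of a peak is shown in capitals, with 9 bases on each side, for a shared coding peak of PSMB5 and of PSMB8 and for coding peaks of PSMB4 and PSMB10 that were listed in shCtrl alone. Sequences are from GENCODE transcripts on GRCh38, 5′ to 3′, and those of PSMB4 and PSMB10 span an intron between the given ends.
PSMB5, chr14:23026162-23026191, minus strand: aggtgcagtCAACCTCTACCAcgtgcggga
PSMB8, chr6:32842205-32842234, minus strand: tttcagtgtCGGCAGCCTCCAagctgctgt
PSMB4, chr1:151400837-151401259, plus strand: ttggctcagCCTCTGCTGCGAgaagttctg
PSMB10, chr16:67934645-67934799, minus strand: gaggtctggCCGCTACCACTTtgtgcctgg

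The capitals mark letters only. The lists give no position of an acetylated base.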

How the data were processed

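RNA-seq libraries (3 shCtrl, 3 shNAT10) were compared as FPKM, which the authors deposited from reads counted on Ensembl genes with HTSeq 0.11.0 (build hg38, per the labels). Recovered reads were whole for 100.0% of 139071 values above 0 (tolerance 0.01 reads), with the longest GENCODE v29 transcript as gene length for 96.8% of genes. Whether the counting used strand is not given in the sources used here. The peaks of acRIP-seq were deposited by the authors as 1 table for shCtrl and 1 for shNAT10, with a fold enrichment (ratio), a p-value and the logarithms of the p-value and of the false discovery rate as other columns. The peak caller is not given in the sources used here.

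The groups were compared by limma 3.58.1 (R 4.3.3), with a mean-variance trend, over 12982 genes as log2(FPKM + 0.1). Fold changes are on that scale and understate low genes. SciPy 1.17.1 gave the exact permutation tests. A peak was shared if at least 1 base of it, on its strand, lay in a peak of the other group. Named were the immunoproteasome genes and their counterparts, PSMA8, PSMB11, up to 6 other called members in each direction, members below the filter or whose peaks are described, NAT10, and called genes of the lists. The members and lists were chosen with earlier results of these data known. PSMC4, PSMA7 and members near the threshold were named after their values were seen. The limma fit was tested on simulated data, and the peak overlap and the promoter motif search on made examples. Some genes of the lists are not reported here.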

Additional observations from a re-analysis of the deposited data

How the results depend on the processing

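Alternatives for the RNA-seq were a pseudocount of 1, a minimum FPKM of 5, no expression filter, TPM, median centring, quantile normalization, no mean-variance trend, a replicate block, each library left out, voom on the recovered reads and, chosen after seeing the data, splines on GC content and transcript length fitted per library. Of 318 values of 20 named members, 283 kept their direction and side of the threshold, 34 lost the call, 1 gained it and 0 reversed. The members called higher numbered 12 with TPM and 4 to 11 with 1 library left out (11 without shCtrl replicate 2). TPM moved the median of all tested genes from -0.01 to 0.0967 and their split from 2699 higher and 2751 lower to 3355 and 2075, and the median of the other members to 0.05. With 1 library left out, members called lower numbered 8 to 14, immunoproteasome genes called lower 3 to 5 (3 without shCtrl replicate 3), other members called lower 4 to 9 (4 without shNAT10 replicate 3), and the medians were -0.97 to -0.74 and -0.13 to 0.06. A minimum FPKM of 5 left PSMB9 and PSMB10 untested, so 3 immunoproteasome genes were called and their median was -0.59. With splines 14 members were lower and 9 higher. Same-numbered libraries deviated together with correlations of -0.04, 0.06 and 0.11, so the number was not taken as pairing. With the replicate block 10 members were called lower and 6 higher, PSMB8 and PSME3 being lost. For PSMB9/PSMB6 and PSMB10/PSMB7 a pseudocount of 1 gave -1.36 and -0.50. The exact p cannot pass 0.05, so only the size of the ratios' differences was compared. With 1 library left out it was -2.26 to -1.82 for PSMB9/PSMB6 and -1.76 to -1.04 for PSMB10/PSMB7. For PSMB8/PSMB5 it was 1.32 to 1.39. Among the 50% of peaks highest in fold enrichment, 10 members had a shCtrl peak, 12 a shNAT10 peak, 4 both, and 2 shCtrl peaks were shared. In the 50% with the lowest p-values these were 17, 18, 10 and 4. With a reciprocal overlap of at least 50%, 10 shCtrl peaks were shared. Where no cause is named, it was not tested.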

Other observations

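PSMC4, an ATPase of the 19S base, was far above every other member, at 1005, 1351 and 1067 FPKM in shCtrl and 1083, 1062 and 1029 in shNAT10, and this was picked out after its values were seen. Of the 39 protein-coding genes with a mean of at least 1 FPKM in shCtrl within 1 Mb of PSMC4 on chromosome 19, 11 (28.2%) were at 100 FPKM or more, against 4.15% of all 10986 such genes. Around PSMD8, a member of the same chromosome with a mean of 162 FPKM in shCtrl, 9 of 35 such genes (25.7%) were. The part of the neighbourhood in the level of PSMC4 was not tested. The other ATPases of the same ring were at means of 9.25 FPKM for PSMC1, 40.5 for PSMC2, 57.8 for PSMC3, 52.7 for PSMC5 and 22.8 for PSMC6 in shCtrl. PSMC1 has 13 named pseudogenes, and 75.8% of its exon bases lie opposite another gene's exons, so its level is uncertain. No acRIP peak was listed on PSMC4 in either group.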
